A study of Mus musculus with 5 samples.

Results

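The genes described here are 40 interferon-stimulated genes, among them 6 guanylate-binding proteins, in mouse leukaemia cells with and without a deletion of Plcg1. They were picked by symbol from a list drawn up with earlier results of these data known, and all 40 were found among the 27526 genes of the deposited normalized table. Per the labels, the cells were Kit-positive leukaemia stem cells of an AML1-ETO9a mouse model, in which a truncated RUNX1-RUNX1T1 fusion protein drives acute myeloid leukaemia. Plcg1 encodes phospholipase C-γ1, which cleaves a membrane lipid into second messengers. There were 2 libraries labelled Plcg1 +/+ (wild-type 1 and 3) and 3 libraries labelled Plcg1 -/- (deleted 2, 4 and 6), the latter with a conditional deletion. All 5 carried the leukaemia label, and no treatment, age or driver of the deletion is given in the labels. Whether each library stands for its own mouse is not in the labels, though deleted 6 differed from the rest in sex-linked genes, as given below. The p-values thus reflect the scatter of these 5 samples alone, and part of that scatter may be technical. In bulk RNA, fewer cells of a type and less RNA per cell cannot be told apart.

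Interferons are secreted proteins that cells release on sensing foreign nucleic acid. Type I interferons bind the IFNAR1-IFNAR2 receptor and, through the kinases JAK1 and TYK2, activate a complex with IRF9 that binds the interferon-stimulated response element (ISRE) in promoters. Interferon-γ binds IFNGR1-IFNGR2 and acts through the gamma-activated sequence (GAS), a route by which guanylate-binding proteins are classically induced. The products block viral entry, degrade viral RNA, sense nucleic acid or restrain the pathway itself, and many of them are also expressed at a low level in blood-forming cells without infection.

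The promoters below show an element found in the promoters of many, but not all, of these genes; it was not used to choose them. RefSeq promoters (GRCm38.p6, from 250 bases before to 50 bases after a start site, 300 bases) were found for 28 of the 40 genes. The ISRE core, searched as GAAANNGAAA on both strands, lay in the promoters of 18 of those 28 genes (64.3%), against 1079 of 27025 genes in the whole promoter table (3.99%). The GAS core, searched as TTCNNNGAA, which reads the same on both strands, lay in 9 of the 28 (32.1%), against 2582 of the 27025 (9.55%). Both were present in 6 of the 28 (21.4%) and in 166 of the 27025 (0.614%), and matches may overlap each other. Such a match is a description of letters in a window and no evidence of binding. The following 80-base stretches are those of 8 genes that recur in the results, 5′ to 3′ on the gene's own strand, with complete matches in capitals.
Isg15, chr4:156200855-156200934, minus strand: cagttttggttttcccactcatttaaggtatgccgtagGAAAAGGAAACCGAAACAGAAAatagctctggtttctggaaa
Ifit1, chr19:34640754-34640833, plus strand: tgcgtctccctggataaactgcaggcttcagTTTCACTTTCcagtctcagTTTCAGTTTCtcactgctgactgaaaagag
Ifit3, chr19:34583357-34583436, plus strand: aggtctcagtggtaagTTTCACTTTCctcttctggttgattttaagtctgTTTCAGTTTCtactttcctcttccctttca
Rsad2, chr12:26456543-26456622, minus strand: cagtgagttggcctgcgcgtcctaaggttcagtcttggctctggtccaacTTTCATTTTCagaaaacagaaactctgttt
Oas1a, chr5:120907526-120907605, minus strand: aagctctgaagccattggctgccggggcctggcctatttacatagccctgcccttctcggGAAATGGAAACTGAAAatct
Oas1g, chr5:120887614-120887693, minus strand: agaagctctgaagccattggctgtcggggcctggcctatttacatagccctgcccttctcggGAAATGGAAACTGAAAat
Gbp3, chr3:142559955-142560034, plus strand: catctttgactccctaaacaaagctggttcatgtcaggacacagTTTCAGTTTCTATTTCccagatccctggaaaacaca
Gbp7, chr3:142530233-142530312, plus strand: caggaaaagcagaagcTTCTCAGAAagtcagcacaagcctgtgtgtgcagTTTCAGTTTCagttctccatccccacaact

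In Isg15 3 overlapping ISRE cores ran together, and in Ifit1 and Ifit3 a pair of cores lay apart from each other, on the opposite strand. Oas1a and Oas1g, neighbouring copies on chromosome 5, had the same run of letters just before the start site. Oas1a alone of the pair also had a GAS core, upstream of the stretch shown. Gbp7 had an ISRE core and a GAS core in the stretch shown, whereas the stretch of Gbp3 had ISRE cores alone. Gbp3 has a further start site in the table whose window held neither motif. In Ifitm3 the ISRE cores lay after the start site, the first of them starting 2 bases downstream, and are not printed. No ISRE core was found in the windows of the other 10 genes, among them Oasl1, Oasl2, Cmpk2 and Ifit2.

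Depth did not limit most of these genes. The libraries held 37306507 to 57133771 gene counts, 3 counts corresponded to 0.0526 to 0.0723 CPM (counts normalised for library size with trimmed-mean, or TMM, factors), and 31 of the 40 genes had at least 100 counts in every library. RNA of the receptor Kit was uneven, though all libraries were labelled Kit-positive. It measured 26.8 and 32.1 CPM in the wild-type pair, but 672 CPM in deleted 2, 304 CPM in deleted 4 and 3.08 CPM in deleted 6. These RNA levels do not measure the receptor protein. Reads on Runx1t1, the mouse gene of the fusion partner, numbered 5 and 13 in wild-type and 6035, 3921 and 598 in deleted 2, 4 and 6. Plcg1 itself was not lower in deleted, at 22.1 and 34.0 CPM against 53.0, 26.9 and 37.1 CPM, where totals per gene cannot check a deletion of some exons. Deleted 6 stood apart from the other 4, with the granule enzyme Mpo at 4.21 CPM against 2706 to 5068 CPM and Xist at 5375 counts against at most 3. Ddx3y, on the Y chromosome, had 12 counts in deleted 6 against 2811 to 4893 counts. By these 2 sex-linked genes deleted 6 read as female and the other 4 as male. Lanes in the file names differed as well: wild-type 3, deleted 2 and deleted 4 carried lane 4, wild-type 1 lane 3 and deleted 6 lane 5. Every result is therefore given for the libraries as labelled, and with deleted 6 left out where that matters.

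Per length of exon, the 40 genes spanned a wide range of levels, given as CPM per kilobase. The membrane proteins Ifitm3 and Ifitm2, which hinder fusion of viruses with the cell, had the highest mean levels, at 410 and 250 CPM per kilobase. Bst2 (tetherin, which holds budding virus at the cell surface) followed at 113, Ifi27 at 57.2 and Oas1a at 26.4 on the same scale. The ranges over the 5 libraries overlapped between each of these neighbours in the order, for example 143 to 885 for Ifitm3 and 154 to 447 for Ifitm2. Ifi44 was the lowest, at 0.0918 CPM per kilobase, with 1 and 13 counts in wild-type and 12, 93 and 26 in deleted 2, 4 and 6. Mean levels were under 1 CPM per kilobase for 6 genes and 10 or more for 14.

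No member passed the test of the labelled genotypes across all 5 libraries, and the members were split evenly between higher and lower values. edgeR's quasi-likelihood test called 0 of the 40 higher and 0 lower at an adjusted p under 0.05, as it called 0 of all 16120 genes tested (0%), with a smallest adjusted p among members of 0.163. At an unadjusted p under 0.05, 1 member stood higher in deleted (Oasl1), where 9.44% of all genes did, and 3 stood lower (Gbp3, Ifitm3 and Ifitm2), where 5.42% did. Taken as deleted minus wild-type, the log2 fold change had a median of 0.04 over the members and 0.01 over all genes, and 21 of the 40 were above 0. Groups did not overlap for 9 members. Rsad2 and Oasl1 were higher in every deleted library (2 of 40, against 22.4% of all genes), and Gbp3, Gbp5, Ifitm3, Ifitm2, Ifi35, Oas1g and Eif2ak2 were lower (7 of 40, against 23.7%). Neither count was larger than the background share would give over 40 genes.

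Leaving out deleted 6 gave 4 calls, all lower in deleted: Gbp3, Gbp5, Gbp7 and Ifitm3. In that fit edgeR called 5.07% of 15787 genes lower, and 0 of the 40 members higher where it called 7.89% of genes. limma-voom with sample quality weights on all 5 libraries called the same 4 genes lower (5.87% of all genes) and 0 higher (7.63%). DESeq2 on all 5 called Gbp3 and Ifitm3 lower (2.17%) and 0 members higher (4.59%). Within lane 4, with wild-type 3 against deleted 2 and 4, edgeR called Gbp3 alone lower (0.779% of all genes) and 0 members higher (1.26%), the single wild-type library being assumed to vary like the others. The plot of fold changes shows both sets of values gene by gene.

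**Figure D1:**
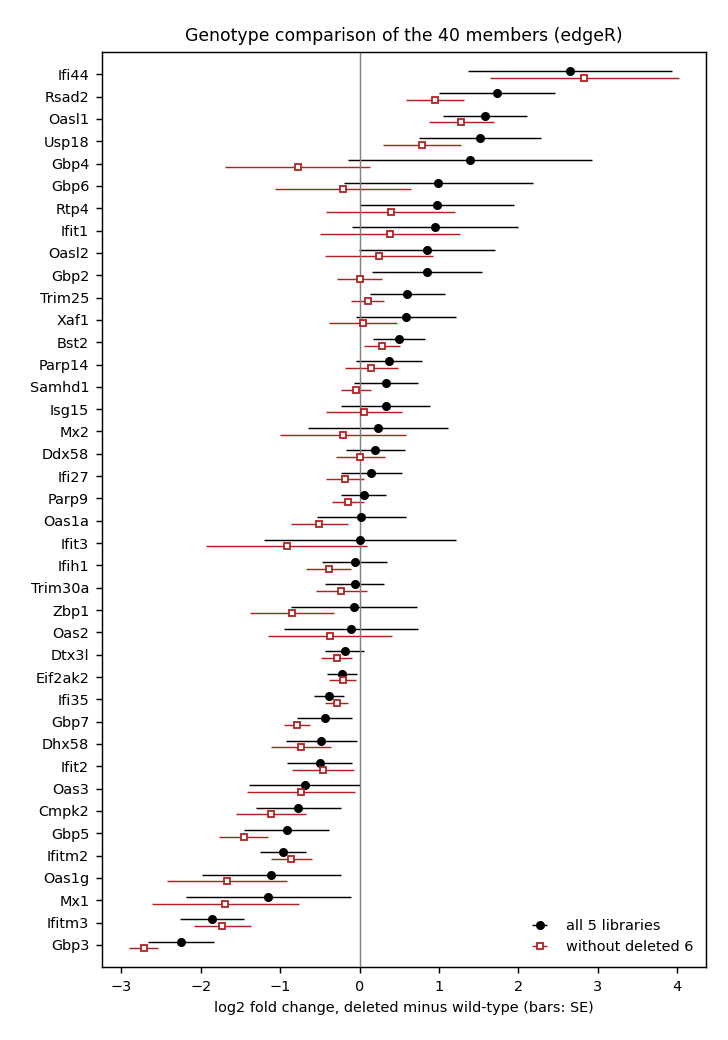
Log2 fold change, deleted minus wild-type, of the 40 genes, one row each. Filled circles show edgeR's fit of all 5 libraries and open squares the fit without deleted 6. Bars are standard errors derived from the F statistic of edgeR's test. Values ran from -2.25 (Gbp3) to 2.65 (Ifi44), and leaving out deleted 6 moved the median from 0.04 to -0.22.

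Among the libraries labelled deleted, most members stood lowest in deleted 2 and highest in deleted 6. Deleted 2 had the lowest level of the 5 libraries for 32 of the 40 genes, against 14.4% of all tested genes, and deleted 6 the highest for 24, against 36.2%. Deleted 4 was above deleted 2 for 39 genes, where 49.7% of all genes were, and the exception was Gbp7. For 24 of the 40 the gap was at least 2-fold, against 7.27% of all genes. Deleted 6 was above deleted 2 for 38 genes, against 49% of all genes, with Ifitm2 and Ifi35 as exceptions, and for 31 by at least 2-fold, against 18.6%. These comparisons set single libraries side by side, were chosen after the values were seen and have no test.

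Median values show the same order. The median log2 difference of the 40 genes from the wild-type mean was -0.16 and 0.16 in wild-type 1 and 3, -0.70 in deleted 2, 0.05 in deleted 4 and 0.53 in deleted 6. The median of all tested genes lay between -0.02 and 0.02 in every library. Deleted 2 stood below both wild-type libraries for 35 genes, against 39.5% of all genes, and deleted 6 above both for 26, against 43.3%. The wild-type libraries also differed, with wild-type 3 above wild-type 1 for 35 genes, against 54.8% of all genes. Over the 3 deleted libraries the median standard deviation of log2(CPM + 1) was 0.67 for the members and 0.28 for all tested genes.

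**Figure D2:**
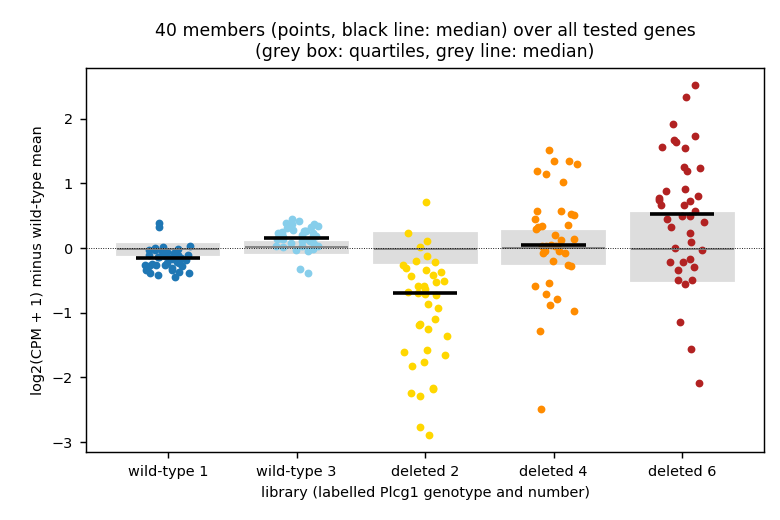
Log2(CPM + 1) minus the mean of both wild-type libraries in each of the 5 libraries, with 1 point for each of the 40 genes and their median as a black line, over the quartiles (grey box) and median (grey line) of all tested genes. The members' median was -0.70 in deleted 2 and 0.53 in deleted 6, while that of all genes stayed within 0.02 of 0.

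Markers of several blood cell types moved between the same libraries. The 12 monocyte and macrophage markers summed to 2365 and 2584 CPM in the wild-type pair. In deleted 2, 4 and 6 the sums were 1452, 2914 and 4039 CPM. Most of the sum in deleted 6 was Cd68 (2451 CPM), Adgre1 (731 CPM) and Csf1r (727 CPM). Ly6c2 was at 5.45 CPM in deleted 6 against 781 and 832 CPM in wild-type. Averaged over the markers, the log2 difference from the wild-type mean was -1.35, -0.02 and -1.42 in deleted 2, 4 and 6. By that measure deleted 6 was not the highest. Single markers were divided: 4 of the 12 were lowest in deleted 2 (14.4% of all tested genes were). In deleted 6, 4 were highest (36.2% were) and 6 were lowest (37.9% were). The sum of the 8 mast cell and basophil markers ran against the order of the 40 genes. It reached 10448 CPM in deleted 2 and 4733 CPM in deleted 4 but 33.4 CPM in deleted 6, beside 70.2 and 120 CPM for the wild-type pair. The 10 neutrophil markers summed to 1387 CPM in deleted 6 and to 13366 to 18848 CPM in the other 4 libraries. Of the 1387 CPM, 1278 CPM was Mmp8, which was highest in deleted 6, while 9 of the 10 markers were lowest there. The 7 stem and progenitor markers summed to 158 CPM in deleted 6 and to 591 to 1540 CPM in the other 4. Cd93, at 119 to 208 CPM in the 5 libraries, made up 149 CPM of the 158. Of those 7 markers, 6 were lowest in deleted 6, as 37.9% of all tested genes were. The 7 conventional dendritic cell markers summed to 13.4 and 12.7 CPM in the wild-type pair, against 124, 102 and 769 CPM in deleted 2, 4 and 6. Of the 769 CPM, 756 CPM was Itgax. Of the 6 tested, 4 were above wild-type in every deleted library (22.4% of all genes were) and 1 was below (23.7% were). In deleted 6, 4 of them were highest (36.2% were) and 2 were lowest (37.9% were).

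Markers of cell types known as producers of interferon were uneven. The 8 plasmacytoid dendritic cell markers summed to 178 and 181 CPM in the wild-type pair, against 114, 164 and 206 CPM with Plcg1 deleted. Most of the sum was Bst2 and Tcf4, which moved differently. Bst2, itself one of the 40 genes, stood at 83.5 and 79.0 CPM in the wild-type pair, against 74.4, 121 and 150 CPM with Plcg1 deleted. Tcf4 was below wild-type in every deleted library, at 93.0 and 100 CPM against 37.8, 40.1 and 54.5 CPM. The other markers on that list stayed at or under 1.32 CPM, with Klk1 at 0 counts in every library and Siglech at most 25. The 9 T and natural killer cell markers summed to 74.8 and 105 CPM in the wild-type pair, against 33.1, 27.5 and 0.656 CPM with Plcg1 deleted. Nearly all of that was Nkg7, with 3087 and 5817 counts in wild-type and 1883, 1442 and 18 in deleted 2, 4 and 6, while Cd3e, Cd3g and Ncr1 were at 0 counts in all 5 libraries. The part of the marker shifts in the differences between deleted libraries was not tested.

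**Figure D3:**
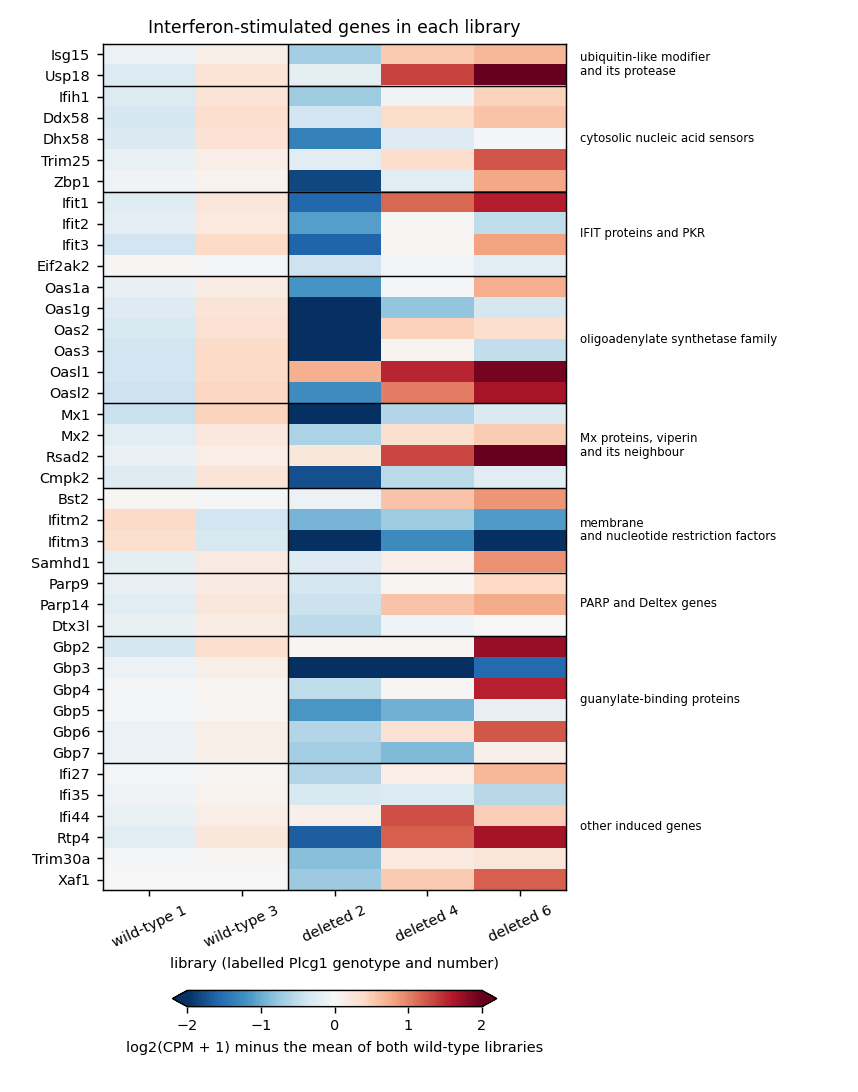
Log2(CPM + 1) minus the mean of both wild-type libraries (colour, limited to 2 either way) for the 40 genes (rows, grouped by the role of their products) in the 5 libraries (columns). Deleted 2 is the lowest column for 32 genes and deleted 6 the highest for 24; Gbp3 and Ifitm3 are low in all 3 deleted libraries.

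ISG15, a ubiquitin-like protein attached to newly made proteins, and USP18, the protease that removes it and also dampens signalling at the type I receptor, are close partners. Here and below, values run through wild-type 1 and 3 and then deleted 2, 4 and 6, and those of Isg15 were 4.17 and 5.03 CPM, against 2.49, 7.0 and 7.82 CPM. Usp18 stood at 14.8 and 21.9 CPM in the wild-type pair, against 15.6, 47.5 and 94.7 CPM with Plcg1 deleted. Both were highest in deleted 6, and for both the groups overlapped through deleted 2. The log2 fold change of Usp18 was 1.52 ± 0.77 (SE; adjusted p 0.405 in edgeR's test), and that of Isg15 0.33 ± 0.56 with 0.771. Without deleted 6, Usp18 was at 0.79 ± 0.49, so that this library carried much of its size.

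Cytosolic sensors detect foreign nucleic acid: RIG-I (Ddx58) and MDA5 (Ifih1) bind double-stranded RNA, LGP2 (Dhx58) modulates them, TRIM25 is a ubiquitin ligase of the RIG-I pathway and ZBP1 binds Z-form nucleic acid and can start cell death. Deleted 2 was the lowest library for all 5 genes, and deleted 6 the highest for 4. Trim25 stood at 86.1 and 103 CPM in the wild-type pair, against 81.2, 120 and 227 CPM with Plcg1 deleted, a log2 fold change of 0.60 ± 0.47 (adjusted p 0.546) that was 0.10 without deleted 6. Dhx58 stood at 33.8 and 50.6 CPM in the wild-type pair, against 15.6, 34.4 and 40.6 CPM with Plcg1 deleted, a log2 fold change of -0.48 ± 0.45 (adjusted p 0.603) that ran from -0.75 to -0.16 with any 1 library left out. Groups overlapped for both genes. Zbp1, described after its values were seen, was even in wild-type at 15.4 and 17.0 CPM and uneven in deleted at 3.84, 13.9 and 28.4 CPM, 7.40-fold higher in deleted 6 than in deleted 2.

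The IFIT proteins bind RNA with foreign 5′ ends and lie side by side on chromosome 19, and PKR (Eif2ak2) halts translation on binding double-stranded RNA. All 4 genes were lowest in deleted 2. Ifit2 stood at 15.1 and 20.0 CPM in the wild-type pair, against 7.60, 17.7 and 12.0 CPM with Plcg1 deleted, with a log2 fold change of -0.50 ± 0.41 (adjusted p 0.562) that ran from -0.84 to -0.24 with any 1 library left out. Eif2ak2 varied least, at 51.7 and 50.0 CPM in the wild-type pair, against 38.0, 49.1 and 43.8 CPM with Plcg1 deleted. All 3 deleted libraries were thus below wild-type for Eif2ak2, by a log2 fold change of -0.22 ± 0.19 (adjusted p 0.569).

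Ifit1 and Ifit3, the genes with paired ISRE cores above, had the widest ranges of the family and are described after their values were seen. Ifit1 stood at 5.18 and 7.62 CPM in the wild-type pair, against 1.45, 15.1 and 20.6 CPM with Plcg1 deleted. Ifit3 stood at 1.74 and 3.64 CPM in the wild-type pair, against 0.175, 2.66 and 5.25 CPM with Plcg1 deleted. In both, deleted 2 was far below every other library and deleted 6 was the highest, and the ratio of deleted 6 to deleted 2 was 14.2 for Ifit1 and 29.9 for Ifit3. Ifit3 has a near-identical copy, Ifit3b, so its level is uncertain.

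Oligoadenylate synthetases make the second messenger that switches on RNase L, which cuts viral and cellular RNA. OASL1 and OASL2 are related proteins of the same family. Deleted 2 was lowest for 5 of the 6 genes, Oasl1 being the exception. Oas1a, the most abundant per length, stood at 44.0 and 54.6 CPM in the wild-type pair, against 21.0, 47.7 and 81.5 CPM with Plcg1 deleted. Oas1g stood at 13.7 and 20.1 CPM in the wild-type pair, against 1.38, 9.19 and 13.0 CPM with Plcg1 deleted. These neighbours have the same ISRE letters before the start site. Every deleted library was below wild-type for Oas1g, deleted 6 only narrowly (log2 fold change -1.11 ± 0.87, adjusted p 0.547). That was not so for Oas1a (0.02 ± 0.56, adjusted p 0.986), and the difference between them was not tested. Without deleted 6 the log2 fold changes were -1.67 and -0.51. Reads that fit several copies were left out of the counts, so both levels are uncertain.

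Oasl1, which restrains translation of the interferon regulatory factor IRF7, was one of only 2 members higher in every deleted library. It stood at 3.45 and 6.59 CPM in the wild-type pair, against 8.50, 15.7 and 21.0 CPM with Plcg1 deleted. Its log2 fold change was 1.58 ± 0.53 (adjusted p 0.291 in edgeR's test) and lay between 1.19 and 2.13 with any 1 library left out. Oasl2, its neighbour on chromosome 5 and described after its values were seen, overlapped between groups, at 23.4 and 42.7 CPM in the wild-type pair, against 12.7, 65.3 and 101 CPM with Plcg1 deleted.

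Viperin (Rsad2), an enzyme that makes a chain-terminating nucleotide, works with CMPK2, whose gene lies 12751 bases away on chromosome 12 in the opposite orientation. Rsad2 stood at 9.55 and 11.7 CPM in the wild-type pair, against 12.6, 28.3 and 65.4 CPM with Plcg1 deleted. Cmpk2 stood at 15.0 and 21.8 CPM in the wild-type pair, against 4.66, 12.1 and 15.5 CPM with Plcg1 deleted. Rsad2 was above wild-type in every deleted library, though in deleted 2 only slightly, whereas Cmpk2 was below both wild-type libraries in deleted 2 and 4. The log2 fold changes were 1.73 ± 0.73 for Rsad2 (adjusted p 0.350) and -0.77 ± 0.54 for Cmpk2 (adjusted p 0.507), and the difference between them was not tested. Leaving out deleted 6 brought Rsad2 to 0.95 and Cmpk2 to -1.12, and leaving out deleted 2 brought Cmpk2 to -0.41. In both genes deleted 2 was the lowest and deleted 6 the highest of the deleted libraries.

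**Figure D4:**
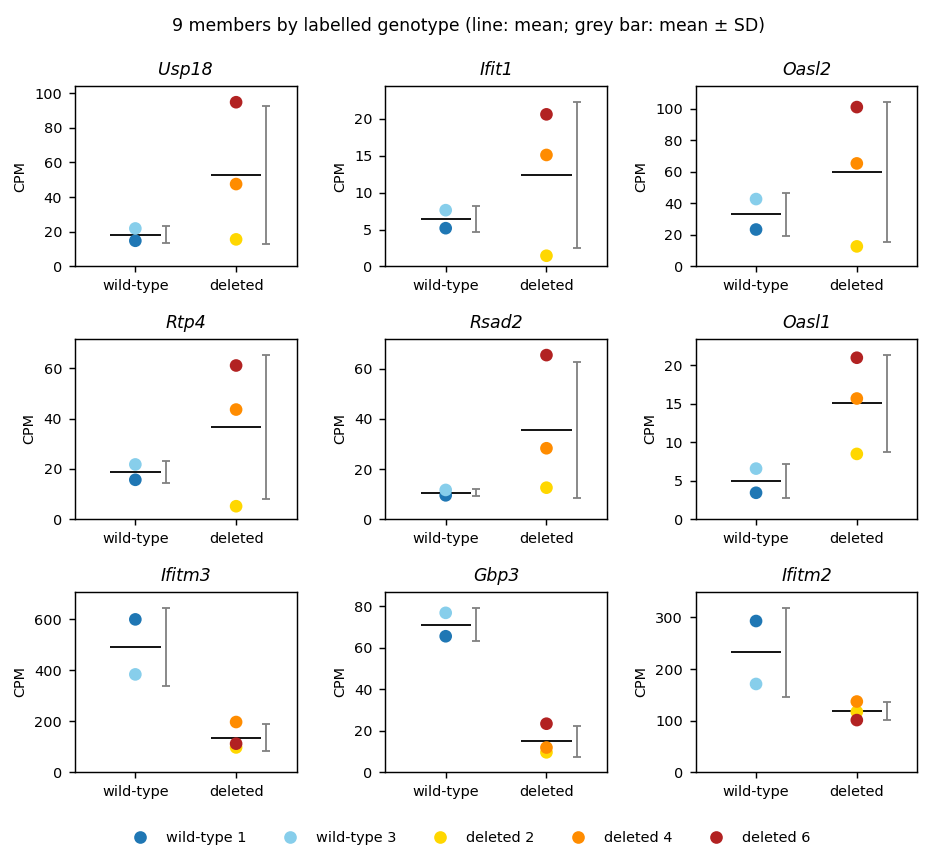
CPM of 9 genes by labelled genotype, with 1 point per library, the group mean as a line and the standard deviation as a grey bar (n = 2 wild-type, n = 3 deleted). Usp18, Ifit1, Oasl2, Rtp4, Rsad2 and Oasl1 spread widely among the deleted libraries, with deleted 2 lowest of the 3, whereas Ifitm3, Gbp3 and Ifitm2 were below wild-type in all 3.

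Mx proteins are dynamin-like GTPases that trap viral particles. Mx1, described after its values were seen, stood at 3.42 and 7.28 CPM in the wild-type pair, against 0.280, 3.02 and 3.93 CPM with Plcg1 deleted. Mx2 stayed at or under 1.74 CPM in every library. Both overlapped between groups, and deleted 2 was the lowest for both.

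Ifitm3 and Ifitm2, the members with the highest levels, were below wild-type in every deleted library. Ifitm3 stood at 600 and 384 CPM in the wild-type pair, against 97.2, 197 and 112 CPM with Plcg1 deleted. Ifitm2 stood at 293 and 171 CPM in the wild-type pair, against 117, 137 and 101 CPM with Plcg1 deleted. All 3 deleted libraries were below both wild-type libraries for each, and deleted 6 was close to deleted 2. Mean Ifitm3 was 492 ± 153 CPM in wild-type (SD, n = 2) against 135 ± 53.7 CPM (SD, n = 3), with a log2 fold change of -1.86 ± 0.40 and an adjusted p of 0.184 in edgeR's test.

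Ifitm3 passed the threshold in some fits and not in others. Without deleted 6 its log2 fold change was -1.73 ± 0.36 with an adjusted p of 0.0277, and DESeq2 on all 5 libraries gave 0.00334. Within lane 4 it was -1.37, with an adjusted p of 0.189. Ifitm2 had a log2 fold change of -0.97 ± 0.29 (adjusted p 0.274). The genes lie 53598 bases apart on chromosome 7. Leaving out wild-type 1 brought Ifitm2 to -0.54, and lane 4 alone gave -0.42. In the same group Bst2 and SAMHD1 (Samhd1), which lowers the cell's nucleotide supply, were lowest in deleted 2 and highest in deleted 6, at 150 and 200 CPM in the latter.

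DTX3L and PARP9 form a complex that adds ubiquitin and ADP-ribose at sites of DNA damage and on viral proteins, and PARP14 is a related transferase. Dtx3l stood at 67.0 and 82.8 CPM in the wild-type pair, against 51.4, 70.5 and 74.5 CPM with Plcg1 deleted, a log2 fold change of -0.19 ± 0.24 (adjusted p 0.680). Parp14 stood at 44.5 and 61.7 CPM in the wild-type pair, against 38.8, 78.4 and 88.7 CPM with Plcg1 deleted, a log2 fold change of 0.37 ± 0.41 (adjusted p 0.653) that ran from 0.15 to 0.66 with any 1 library left out. All 3 genes were lowest in deleted 2. Dtx3l and Parp9 overlap by 682 bases on opposite strands of chromosome 16, and with a kit that does not mark strand their reads there cannot be told apart.

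Guanylate-binding proteins are GTPases that coat and break open the vacuoles and membranes of intracellular pathogens. Gbp3 (ENSMUSG00000028268.13; chromosome 3, 142560026 to 142573209, plus strand, mm10) stood furthest below wild-type of all 40 members. It stood at 65.6 and 76.9 CPM in the wild-type pair, against 9.58, 11.9 and 23.4 CPM with Plcg1 deleted. Every deleted library was below both wild-type libraries by more than the spread within either group, with deleted 6 the highest of the 3. Its mean was 71.2 ± 7.95 CPM in wild-type (SD, n = 2) against 14.9 ± 7.39 CPM (SD, n = 3), the log2 fold change was -2.25 ± 0.42 and the adjusted p 0.163 in edgeR's test of all 5 libraries.

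Gbp3 was called lower in each fit run here that called any member. Without deleted 6 its log2 fold change was -2.72 ± 0.18 with an adjusted p of 0.000923, in DESeq2 the adjusted p was 0.000827, and within lane 4 the values were -2.83 and 0.0326. With any 1 library left out the log2 fold change lay between -2.72 and -2.02, and without deleted 2 the adjusted p was 0.225.

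Gbp5 and Gbp7, which lie beside Gbp3, were also called lower once deleted 6 was left out. Gbp5, which helps to assemble inflammasomes, stood at 4.29 and 4.49 CPM in the wild-type pair, against 1.40, 1.76 and 3.80 CPM with Plcg1 deleted. Gbp7, described after its values were seen, stood at 59.3 and 69.5 CPM in the wild-type pair, against 39.4, 34.3 and 68.6 CPM with Plcg1 deleted. In each case deleted 2 and 4 were close together and low, and deleted 6 was near the wild-type level. Without deleted 6 the log2 fold changes were -1.46 ± 0.31 for Gbp5 (adjusted p 0.0288) and -0.79 ± 0.16 for Gbp7 (adjusted p 0.0223), and with it -0.92 ± 0.53 (0.447) and -0.44 ± 0.35 (0.545).

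The other guanylate-binding genes did not share this. Gbp2, at the far end of the chromosome 3 cluster and described after its values were seen, stood at 8.68 and 14.4 CPM in the wild-type pair, against 11.4, 11.5 and 39.8 CPM with Plcg1 deleted. Gbp4 and Gbp6, of the chromosome 5 cluster, were scarce: Gbp4 had 19 and 30 counts in wild-type and 3, 28 and 150 in deleted 2, 4 and 6. All 3 were highest in deleted 6 and overlapped between groups. Gbp4 overlaps Gbp8 and Gbp9, and the family's copies are alike, so that these low levels are uncertain.

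Of the remaining induced genes, Ifi27, the most abundant per length, stood at 77.2 and 80.0 CPM in the wild-type pair, against 51.9, 86.0 and 125 CPM with Plcg1 deleted, with overlapping groups. Ifi35, a binding partner of NMI, stood at 37.2 and 41.5 CPM in the wild-type pair, against 31.6, 32.4 and 26.3 CPM with Plcg1 deleted. Ifi35 was thus below wild-type in all 3 deleted libraries and lowest in deleted 6, with a log2 fold change of -0.39 ± 0.19 (adjusted p 0.395). Ifi44 had the largest fitted value, 2.65 ± 1.29 (adjusted p 0.393), on the few counts given above, and ran from 1.55 to 5.01 with any 1 library left out.

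Rtp4, a chaperone of membrane receptors described after its values were seen, had one of the widest ranges, at 15.7 and 21.8 CPM in the wild-type pair, against 5.20, 43.6 and 61.1 CPM with Plcg1 deleted. Xaf1, which binds an inhibitor of apoptosis, was even in wild-type at 9.06 and 8.97 CPM and stood at 5.05, 13.4 and 22.0 CPM in deleted. Trim30a, a negative regulator of Toll-like receptor signalling, stood at 60.3 and 62.1 CPM in the wild-type pair, against 33.3, 70.5 and 72.5 CPM with Plcg1 deleted. Deleted 2 was the lowest library in all 3 genes.

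Upstream of these genes, interferon transcripts themselves were barely present. Of 21 interferon genes, 20 had at most 3 counts in every library, and Ifna13 reached 4 counts in wild-type 1. Levels at or under 3 counts, 0.0526 to 0.0723 CPM, were not told apart from 0.

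The interferon receptors differed by chain. Ifngr1, the ligand-binding chain of the interferon-γ receptor, stood at 475 and 473 CPM in the wild-type pair, against 173, 214 and 149 CPM with Plcg1 deleted. All 3 deleted libraries were below wild-type, by a log2 fold change of -1.41 ± 0.22 (adjusted p 0.133 in edgeR's test), and -1.28 with 0.00450 without deleted 6. Ifngr2, the signalling chain, stood at 134 and 132 CPM in the wild-type pair, against 120, 170 and 277 CPM with Plcg1 deleted. Ifnlr1, of the interferon-λ receptor, was also below wild-type, at 4.53 and 3.60 CPM against 0.315, 1.08 and 0.407 CPM. So was Ifnar2, of the type I receptor and described after its values were seen, at 128 and 132 CPM against 81.2, 101 and 82.4 CPM. Its log2 fold change was -0.56 ± 0.18 (adjusted p 0.286). No receptor of the 6 was called in edgeR's fit of all 5 libraries. Without deleted 6 it called 2 lower (Ifngr1 and Ifnlr1) and 0 higher, where 5.07% of all genes were called lower and 7.89% higher. DESeq2 on all 5 libraries called the same 2 lower, where 2.17% of all genes were. Its adjusted p was 8.78e-05 for Ifngr1 and 0.0013 for Ifnlr1.

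Among the 6 JAK-STAT carriers, Jak2 stood at 62.2 and 76.7 CPM in the wild-type pair, against 140, 122 and 87.4 CPM with Plcg1 deleted. It was higher in every deleted library, with a log2 fold change of 0.75 ± 0.27 (adjusted p 0.311), and was the 1 carrier called, higher, without deleted 6 (adjusted p 0.0141), where 7.89% of all genes were. Irf9, described after its values were seen, stood at 52.4 and 54.2 CPM in the wild-type pair, against 35.9, 56.1 and 80.7 CPM with Plcg1 deleted.

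Of the 8 regulatory factors, every deleted library was below wild-type for 3 and above for 1, against 23.7% and 22.4% of all genes. Irf8, a factor of monocyte and dendritic cell development that also acts on interferon-γ targets, stood at 209 and 256 CPM in the wild-type pair, against 35.5, 69.9 and 114 CPM with Plcg1 deleted. Irf7, an amplifier of type I interferon and itself induced, stood at 26.4 and 45.3 CPM in the wild-type pair, against 7.18, 33.8 and 55.2 CPM with Plcg1 deleted. Irf8 was below wild-type in all 3 deleted libraries, as Gbp3 was, whereas Irf7, described after its values were seen, was lowest in deleted 2 and highest in deleted 6. The log2 fold change of Irf8 was -1.67 ± 0.49 (adjusted p 0.271 in edgeR's test) and -2.13 without deleted 6 (0.00871). Irf3 was also below wild-type throughout, at 46.0 and 50.1 CPM against 35.7, 32.1 and 25.8 CPM (-0.62 ± 0.21, adjusted p 0.294). Irf4 was above it throughout, at 0.0241 and 0.793 CPM against 1.66, 2.38 and 8.34 CPM. Its log2 fold change was 3.30 ± 1.48 (adjusted p 0.367), with 1 and 44 counts in wild-type. Of the 8 factors, 0 were called across all 5 libraries and Irf8 alone, lower, without deleted 6, where 5.07% of all genes were.

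**Figure D5:**
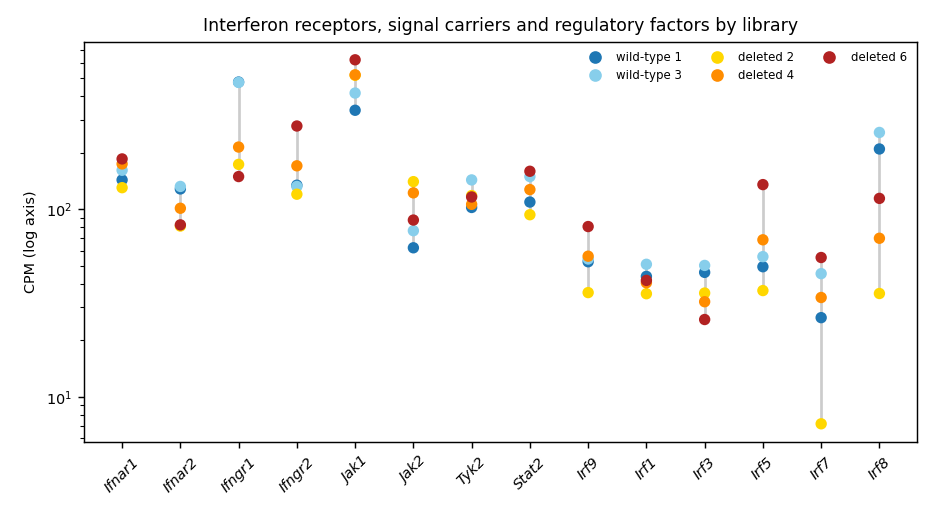
CPM (log axis) of 14 interferon receptor, signal carrier and regulatory factor genes, with 1 point per library and a grey line over the range. Ifnar2, Ifngr1, Irf1, Irf3 and Irf8 were below wild-type in all 3 deleted libraries, and Jak1 and Jak2 were above. Irf7 ran from 7.18 CPM in deleted 2 to 55.2 CPM in deleted 6.

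In the sensing pathway that leads to interferon, 13 genes were tested. None of them was called across all 5 libraries. Mb21d1 (cGAS), the sensor of cytosolic DNA, stood at 35.5 and 43.5 CPM in the wild-type pair, against 19.6, 20.5 and 10.9 CPM with Plcg1 deleted. It was the 1 of the 13 called, lower, without deleted 6 (log2 fold change -0.97, adjusted p 0.0152 in edgeR's test). In that fit 5.07% of all genes were called lower and 7.89% higher. Tlr3, the endosomal sensor of double-stranded RNA, stood at 1.66 and 2.77 CPM in the wild-type pair, against 4.89, 6.23 and 19.6 CPM with Plcg1 deleted. Its values were above wild-type in every deleted library, with a log2 fold change of 2.20 ± 0.77 and an adjusted p of 0.307, and 1.33 without deleted 6. Of the 7 negative regulators 0 were called with or without deleted 6, the latter beside the same shares of all genes.

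A further 42 interferon-induced genes outside the 40 were examined, of which 37 could be tested. Deleted 2 was the lowest library for 24 of the 37, against 14.4% of all tested genes, and deleted 6 the highest for 22, against 36.2%. Across all 5 libraries 0 were called, and without deleted 6 Pml and Ms4a4c were called lower (2 of 36, near the 5.07% of all genes) and 0 higher. Pml, the scaffold of nuclear bodies, stood at 81.0 and 120 CPM in the wild-type pair, against 47.6, 41.8 and 36.9 CPM with Plcg1 deleted. Ms4a4c stood at 62.5 and 74.7 CPM in the wild-type pair, against 4.50, 10.4 and 0.588 CPM with Plcg1 deleted. Both were below wild-type in every deleted library, with no sign of the high level that most induced genes had in deleted 6.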

How the data were processed

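RNA was made into libraries with the SMART-Seq v4 and Nextera XT kits, which do not mark strand, and read as 50-base single ends, per the labels' design text. The submitters' processing notes name the mm10 genome, STAR, DESeq2 1.12.4 and bcl2fastq 1.8.4. Counting settings were not given in the sources used here. Whole-number read counts for 46603 genes per library were deposited by the authors. Their normalized table, a signal that the authors made by dividing the counts by 1 size factor per library, served to find the members and in 1 alternative.

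The counts were filtered with edgeR's filterByExpr (16120 genes, all 40 members among them), scaled by TMM and compared between genotypes by edgeR's quasi-likelihood test, with 3 residual degrees of freedom and Benjamini-Hochberg adjustment over all genes tested (edgeR 4.0.16, limma 3.58.1, R 4.3.3); an adjusted p under 0.05 was a call. The script was tested on simulated data. The SE of a log2 fold change in edgeR's fits is its absolute value divided by the square root of the test's F statistic, as the test itself gives none. With 2 against 3 libraries, exact permutation has a smallest two-sided p of 0.1 and was not used. Libraries were no copies of each other (chi-square per gene 47.1 or more). Reads aligned to several places (13.0% to 15.1%), ambiguous reads (2.36% to 2.78%), reads without a feature (5.89% to 8.09%) and unaligned reads (2.48% to 4.13%) stayed out of library sizes and tests. Limits at 3 counts cover counting error only. Exon lengths and coordinates are from GENCODE M21 (GRCm38, the build also called mm10), and promoters from RefSeq on GRCm38.p6.

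The members, roles, pathway lists and markers were chosen with earlier results of these data known. Genes described in each role group are the 2 with the smallest p and the one with the highest level per length, plus the 8 largest among members whose groups do not overlap; from each pathway list, up to 2 genes each way with the smallest p. All other genes are described with their values already seen. The alternatives were DESeq2 1.42.0, DESeq2 size factors in edgeR, no filter on low counts, a mean of at least 10 CPM, limma-voom with sample quality weights, limma on the deposited signal on a log2 scale (pseudocount 1), lane 4 alone, and each library left out in turn.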

Additional observations from a re-analysis of the deposited data

How the results depend on the processing

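Across the 12 alternatives 0 members were called higher in deleted. The count called lower was 0 over all 5 libraries in edgeR's quasi-likelihood test, 2 in DESeq2, 1 with no filter on low counts (Gbp3, adjusted p 0.0351), 4 in limma-voom with sample quality weights and 1 in lane 4 alone. With single libraries left out it ran from 0 to 4, the 4 without deleted 6. All tested genes called higher and lower numbered 840 and 397 in DESeq2, 163 and 115 with no filter, 1230 and 947 in limma-voom and 211 and 131 in lane 4. With single libraries left out they ran from 0 to 1245 higher and from 0 to 800 lower, the highest without deleted 6. Members with every deleted library below both wild-type libraries were 22 in lane 4, where wild-type 3 alone is the reference (40% of all genes), and 7 to 14 with single libraries left out, 14 without wild-type 1 (31.7%) and 11 without deleted 6 (29.8%). Those with every deleted library above ran from 2 to 18, with 18 without deleted 2 (30.1%) and 5 without wild-type 3 (29.6%). Fewer libraries leave fewer chances to overlap.

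The median log2 fold change of the members was between -0.11 and 0.04 over all 5 libraries, -0.39 in lane 4 and -0.22 to 0.41 with single libraries left out, so its sign was not fixed by these data. No named member that a fit called was called in the other direction by another. A mean of at least 10 CPM left 31 members in the test. No paired analysis was possible because the groups share no replicate number. With 2 wild-type libraries the spread within that group rests on 1 difference, and copies of the Gbp, Oas and Ifit families share reads that were left out.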
